A study of Mus musculus with 18 samples.

Results

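Small nucleolar RNAs (snoRNAs) and the genes that carry them were followed in pancreatic islets of mice that overexpress islet amyloid polypeptide (IAPP), a peptide hormone that beta cells release together with insulin. Members were chosen by gene symbol: box C/D snoRNAs (Snord followed by a number), box H/ACA snoRNAs (Snora), small Cajal body-specific RNAs (scaRNAs, Scarna), the numbered small nucleolar RNA host genes (Snhg, without Snhg18) and Gas5. This gave 155 of the 54186 gene symbols in the table, made up of 91 box C/D snoRNAs, 39 box H/ACA snoRNAs, 9 scaRNAs and 16 host genes. The 18 animals were FVB mice aged 6 weeks, 6 without a transgene (WT), 6 with a human IAPP transgene (hIAPP) and 6 with a rodent IAPP transgene (rIAPP). Both transgenes were driven by the insulin II promoter, so the added peptide is made in beta cells, while RNA came from whole islets, about 165 per mouse with 1 library per mouse. Libraries were prepared for total RNA after removal of ribosomal RNA, and RNA was purified on RNeasy Mini columns. WT islets make the mouse's own IAPP, and both transgenic groups carry their transgene in addition to it.

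The short members are guide RNAs. A box C/D snoRNA binds the methyltransferase fibrillarin and directs 2′-O-methylation of ribosomal RNA, and a box H/ACA snoRNA binds the pseudouridine synthase dyskerin and directs pseudouridylation, while scaRNAs direct the same modifications on spliceosomal RNAs in Cajal bodies. A few, such as U3 (Snord3) and Snora73, take part in cutting the ribosomal precursor. In mammals most of these guides are released from introns by debranching and trimming after splicing of a host transcript. The Snhg genes and Gas5 are named as hosts, and the spliced exons of most carry no long reading frame. In several known cases the exonic product is removed by nonsense-mediated decay. Snhg11 is annotated as protein coding in GENCODE M21. Several hosts start transcription at a run of pyrimidines (the 5′ terminal oligopyrimidine motif) also found at genes of ribosomal proteins.

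The sequences of the 5 short RNAs that were lower in hIAPP than in WT by the test are given first, from GENCODE M21 on GRCm38, each 5′ to 3′. In Snord17 (chr2:144265979-144266216, minus strand, 238 nt) and Snord15b (chr7:99479563-99479707, minus strand, 145 nt) the capitals mark box C (TGATGA) and box D (CTGA). Scarna6 (chr1:87784556-87784820, plus strand, 265 nt) carries the same boxes, and in Scarna3a (chr1:159340283-159340422, plus strand, 140 nt) and Snora57 (chr19:8888538-8888685, minus strand, 148 nt) the capitals mark the ACA box. Snord47 (chr1:161038082-161038158, plus strand, 77 nt) from within Gas5 is shown for contrast, as one of the many short box C/D snoRNAs that were listed at 0 in all 18 libraries.
Snord17: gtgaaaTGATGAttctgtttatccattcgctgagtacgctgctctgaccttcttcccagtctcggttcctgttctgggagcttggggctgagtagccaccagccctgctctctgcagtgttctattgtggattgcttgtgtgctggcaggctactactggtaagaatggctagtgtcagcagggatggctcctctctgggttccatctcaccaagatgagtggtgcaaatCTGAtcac
Snord15b: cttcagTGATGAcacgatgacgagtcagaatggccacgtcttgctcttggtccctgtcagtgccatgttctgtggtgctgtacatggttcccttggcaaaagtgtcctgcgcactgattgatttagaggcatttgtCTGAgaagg
Scarna6: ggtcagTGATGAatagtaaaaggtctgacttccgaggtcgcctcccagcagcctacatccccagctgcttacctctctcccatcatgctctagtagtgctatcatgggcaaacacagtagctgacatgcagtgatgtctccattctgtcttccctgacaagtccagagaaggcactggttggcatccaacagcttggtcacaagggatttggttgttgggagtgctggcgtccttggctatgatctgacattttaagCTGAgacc
Scarna3a: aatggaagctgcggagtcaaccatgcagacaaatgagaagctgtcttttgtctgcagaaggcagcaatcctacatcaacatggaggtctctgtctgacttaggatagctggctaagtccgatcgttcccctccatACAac
Snora57: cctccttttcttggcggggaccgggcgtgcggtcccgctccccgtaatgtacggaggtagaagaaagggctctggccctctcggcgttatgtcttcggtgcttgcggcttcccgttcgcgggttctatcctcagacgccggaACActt
Snord47: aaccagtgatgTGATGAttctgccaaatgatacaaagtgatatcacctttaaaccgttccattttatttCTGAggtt

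Most members carried their boxes, whether or not they were measured. On the strand of the RNA, TGATGA stood within the first 30 bases of 57 of the 84 box C/D snoRNAs with a sequence (67.9%), and CTGA within the last 15 bases of 77 (91.7%). All 6 of these that entered the tests held both, and so did most of those at 0, with TGATGA in 33 of 50 and CTGA in 46 of 50. ACA stood within the last 8 bases of 37 of the 39 box H/ACA snoRNAs (94.9%), including 10 of the 11 tested and 9 of the 10 at 0.

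Most members were too rarely counted to compare. Of the 155, 63 were listed at 0 in every library (52 box C/D snoRNAs, 10 box H/ACA snoRNAs and 1 scaRNA), and 38 were above 0 in all 18. The filter on low counts kept 41, namely 9 box C/D snoRNAs, 11 box H/ACA snoRNAs, 5 scaRNAs and all 16 hosts, and left 114 without a test, 51 of them above 0 in some library. Just inside the filter were Snord13, Snord32a and Snora9 with mean counts of 11.2, 10.7 and 9.25 per library, and just outside were Snord22, Snora30 and Snora17 with 8.11, 5.33 and 5.0. The filter can keep a gene through the 1 genotype where it is high, so the counts over tested members below describe those members and not the families.

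Detection was more frequent among longer RNAs, as the plot of mean count against length shows. Of the 43 short members of 64 to 79 nt, 13 were above 0 in some library and none was kept. Of the 40 members of 126 to 149 nt, 31 were above 0 and 10 were kept, and all 7 members of 205 to 414 nt were above 0 in all 18 libraries and kept. The median annotated length was 80 nt for box C/D snoRNAs, 133 nt for box H/ACA snoRNAs and 140 nt for scaRNAs. Detection also differed by the place in the host among members of 126 nt and longer: 21 of 22 that lie within an intron were above 0 in some library, against 14 of 23 that overlap an exon of another gene and 5 of 5 without a host. Column purification and library preparation both act on RNA length, and the counting of reads that overlap another gene is not given in the sources used here. Their parts in these counts were not tested.

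**Figure D1:**
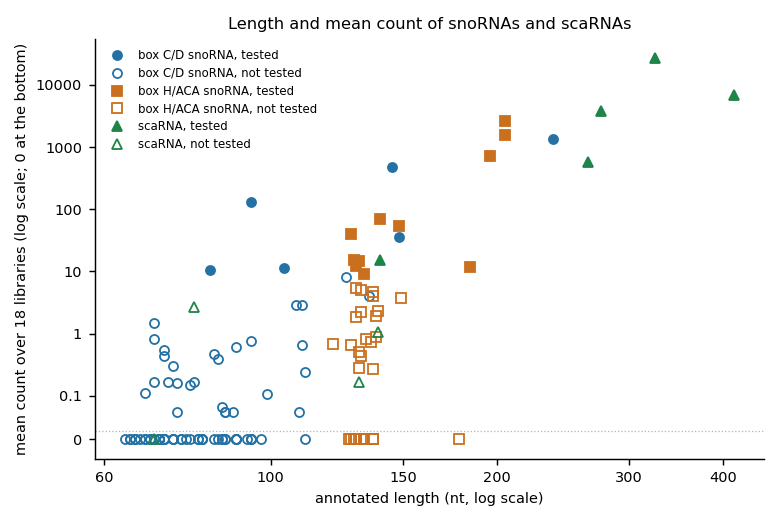
Annotated length in nt (x axis) against mean estimated count per library (y axis, log scale) for the short members with a GENCODE M21 entry, coloured by class. Filled points entered the tests, and all 7 members of 205 to 414 nt are filled while none of the 43 of 64 to 79 nt is.

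The measured short RNAs were a small and uneven fraction of the libraries. They took 0.0230 to 0.0402% of all counts in a library, and Scarna10, a scaRNA with both C/D and H/ACA features, supplied 50.4 to 66.8% of that. Per kilobase of annotated length, mean levels over all 18 libraries were 577 CPM (counts per 1000000 counts) for Scarna10, 120 for Scarna2, 97.6 for Scarna13, 90.1 for Snora73a and 39.0 for Snord17, against 15.3 for Gas5 and 13.5 for Snhg8. Scarna2, which is known to have its own promoter, and Scarna13, which lies in Snhg10, thus came after Scarna10. Short RNAs varied more between mice of 1 genotype than hosts did: among members averaging at least 1 CPM, the median coefficient of variation was 30.1% in WT, 19.6% in hIAPP and 28.1% in rIAPP for 10 short RNAs, and 11.6, 10.3 and 10.6% for 15 hosts.

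Libraries held 109.6 to 166.2 M counts (M, units of 1000000), with lower mean totals in hIAPP (128 M) and rIAPP (138 M) than in WT (156 M). Markers of other cell types differed between the genotypes and bear on every comparison here. Summed endocrine markers (12 genes) took 14.8 to 18.0% of counts in WT, 10.4 to 15.5% in hIAPP and 10.95 to 14.3% in rIAPP. Acinar markers (24 genes) took 0.0873 to 0.363%, 0.228 to 1.65% and 0.434 to 1.74%, and macrophage markers (13 genes) 0.0131 to 0.0157%, 0.0384 to 0.0859% and 0.0101 to 0.0113%. None of these markers was at 0 in any library. hIAPP 5 and hIAPP 6 stood apart, with the 2 lowest endocrine shares of their genotype (10.4 and 11.4%) and the 2 highest acinar shares (1.02 and 1.65%), so results that rest on them are given without them as well. In bulk islet RNA, fewer cells of a type and less RNA per cell cannot be told apart.

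The first comparison set hIAPP islets, which make the amyloid-forming human peptide, against WT. Of the 25 short guide RNAs tested 5 fell, Snord17, Snord15b, Scarna3a, Scarna6 and Snora57, and none rose. Over all 20244 genes tested, 15.8% were called in this comparison (edgeR quasi-likelihood test, Benjamini-Hochberg adjusted p under 0.05), 8.31% higher and 7.53% lower. The log2 fold change was below 0 for all 25 short RNAs, with a median of -0.59 and a range that reached -2.36, while the median of all genes was -0.01. It was below 0 for 22 of 25 with limma-voom (median -0.43) and, without the filter on low counts, for 48 of 76 (median -0.43). By class, 2 of 9 box C/D snoRNAs, 1 of 11 box H/ACA snoRNAs and 2 of 5 scaRNAs fell. None of the 16 hosts passed the test, at a median of -0.02, although 4 had an unadjusted p under 0.05. The share of all genes at that unadjusted threshold is not given here and is at least the 15.8% called. DESeq2 also called no host, and limma-voom called 1, Gas5.

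Snord17, a box C/D snoRNA from an intron of Snx5, changed most clearly. Its level was 6.90 CPM in the lowest WT library, 13.1 at the median and 23.1 in the highest, against 3.68, 4.94 and 5.57 in hIAPP and 6.20, 8.94 and 13.2 in rIAPP. All 6 hIAPP libraries lay below all WT and all rIAPP libraries, while rIAPP overlapped WT. The level fell by 1.57 ± 0.22 (SE) on the log2 scale in hIAPP against WT, a 2.97-fold lower level (95% interval -2.02 to -1.11, adjusted p = 6.2e-05).

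Snord15b, a U15 snoRNA from within the ribosomal protein gene Rps3 (where it overlaps an annotated exon), showed the same separation at a lower level. It had 3.46, 3.74 and 6.05 CPM (lowest, median, highest) in WT, 1.60, 2.55 and 3.18 in hIAPP and 2.06, 3.53 and 4.69 in rIAPP. No hIAPP library reached the lowest WT library, but rIAPP overlapped both. The fall in hIAPP against WT was 0.76 ± 0.22 on the log2 scale, 1.69-fold (adjusted p = 0.022). This call was lost without hIAPP 6 alone (adjusted p = 0.055), without hIAPP 5 and 6 together (0.12) and with an acinar marker covariate (0.29).

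Scarna3a was the rarest RNA called, with 15 to 36 counts per library in WT, 0 to 8 in hIAPP and 8 to 23 in rIAPP. This is 0.0988, 0.169 and 0.259 CPM (lowest, median, highest) in WT, 0, 0.0403 and 0.0586 in hIAPP and 0.0548, 0.104 and 0.151 in rIAPP. It was listed at 0 in hIAPP 6, and the hIAPP and WT libraries did not overlap. The log2 fold change in hIAPP against WT was -2.21 ± 0.44 (95% interval -3.13 to -1.29, adjusted p = 0.0019), with the interval's width set by these low counts.

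Scarna6, which carries C and D boxes, and Snora57, a box H/ACA snoRNA, fell with overlapping groups. Scarna6 had 3.23, 4.70 and 7.07 CPM in WT, 2.20, 2.96 and 4.09 in hIAPP and 3.26, 4.16 and 5.03 in rIAPP. Its fall in hIAPP against WT was 0.59 ± 0.17 on the log2 scale (adjusted p = 0.024). Snora57 had 0.329, 0.456 and 0.766 CPM in WT, 0.130, 0.244 and 0.359 in hIAPP and 0.157, 0.399 and 0.655 in rIAPP, a fall of 1.04 ± 0.33 in hIAPP (adjusted p = 0.038). For both RNAs most hIAPP libraries lay under the lowest WT library. The call of Scarna6 was also lost with library totals alone, with limma-voom and without WT 5, hIAPP 4, hIAPP 5 or hIAPP 6, and that of Snora57 with limma-voom, without the filter on low counts, with thinned counts, and without any 1 of 7 libraries (WT 1, 4, 5 or 6, or hIAPP 4, 5 or 6).

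**Figure D2:**
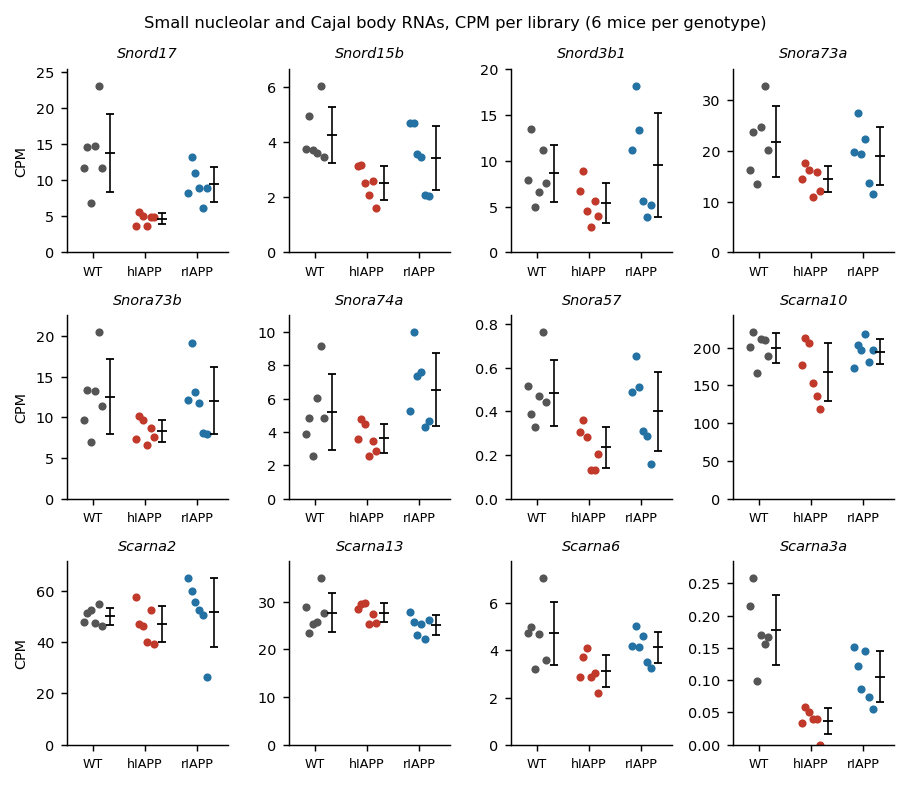
CPM (y axes) of 12 short RNAs in each library, by genotype, with points for the 6 libraries and bars for the mean and SD. Snord17 and Snord15b in hIAPP lie below every WT point, while Scarna13 lies at similar levels in all 3 genotypes.

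The count of 5 depended on which libraries were used. Without hIAPP 5 and hIAPP 6 together 2 were called (Snord17 at -1.61 and Scarna3a at -1.92), without hIAPP 6 alone 2, without WT 5, hIAPP 4 or hIAPP 5 alone 3 each, and without WT 3 alone 7. Genes called in all went from 3208 to 1675, 2377, 3919, 3053, 2434 and 2441 in these fits, in that order. With an acinar marker score as a covariate the genes called fell from 3208 to 806 in all, and 1 short RNA was called, Snord17, at -1.63 with an adjusted p of 0.0050, while Scarna3a stayed at -2.14 with an adjusted p of 0.054. The acinar shares of these 2 genotypes overlapped only in part, so this fit cannot cleanly separate acinar content from genotype. The part of the macrophage markers, of which 12 of 13 were higher in hIAPP than in WT, was not tested. Nor was that of the stellate and mesenchymal markers, of which 8 of 10 were higher.

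Other abundant guides did not pass the test. Snora73a and Snora73b, the U17 RNAs that act in early cutting of the ribosomal precursor, are 205 nt each and lie in the locus of Snhg3 and Rcc1 on the minus strand, at chr4:132352775-132352979 and chr4:132352322-132352526. They are shown because they are 96.6% identical, so that reads from one can be assigned to the other and their separate counts are uncertain. Capitals mark the 7 positions that differ, counted from the 5′ end and written with the Snora73a base first: G3A, G54A, A111G, T164C, G203A, T204A and T205A.
Snora73a: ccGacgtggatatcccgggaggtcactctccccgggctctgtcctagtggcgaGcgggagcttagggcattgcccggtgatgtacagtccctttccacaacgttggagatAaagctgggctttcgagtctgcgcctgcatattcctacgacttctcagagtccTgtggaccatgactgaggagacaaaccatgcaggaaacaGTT
Snora73b: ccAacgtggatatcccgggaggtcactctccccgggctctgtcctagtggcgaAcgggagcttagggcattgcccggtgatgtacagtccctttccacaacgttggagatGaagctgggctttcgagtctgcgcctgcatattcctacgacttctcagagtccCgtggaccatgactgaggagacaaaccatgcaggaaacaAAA

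Snora73a had 13.4, 22.0 and 32.9 CPM (lowest, median, highest) in WT, 10.9, 15.1 and 17.6 in hIAPP and 11.6, 19.6 and 27.4 in rIAPP. Snora73b had 6.98, 12.3 and 20.5, 6.58, 8.12 and 10.1, and 7.98, 12.0 and 19.2 in the same order. In both, the hIAPP range sat in the lower part of the WT range. Both had a log2 fold change of -0.59 in hIAPP against WT, with adjusted p-values of 0.056 and 0.078. Snora73a was called with DESeq2, in a fit of these 2 genotypes alone, and without WT 1 or WT 3.

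The U3 snoRNA Snord3b1, which binds the ribosomal precursor early, had 4.97, 7.75 and 13.5 CPM in WT, 2.73, 5.08 and 8.84 in hIAPP and 3.88, 8.40 and 18.2 in rIAPP. The 3 genotypes overlapped, and the change in hIAPP against WT was -0.67 (adjusted p = 0.21). Named after their values were seen, Snord94 stood at -1.33 with an adjusted p of 0.094, and Snora68, at 0 in 5 of the 6 hIAPP libraries, at -2.36 with an adjusted p of 0.13.

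The most abundant scaRNAs moved least. Scarna10 had 166.0, 205 and 221 CPM in WT, 119, 165 and 213 in hIAPP and 173, 197 and 218 in rIAPP, a log2 change of -0.25 in hIAPP against WT (adjusted p = 0.16). Scarna2 had 46.2, 49.5 and 54.8 CPM in WT and 39.3, 46.6 and 57.4 in hIAPP, a log2 change of -0.09 (adjusted p = 0.76). Scarna13 had 23.5, 26.7 and 35.0 CPM in WT and 25.3, 28.0 and 29.8 in hIAPP, and its 95% interval of -0.17 to 0.17 limits any change to that size. All 3 overlapped between genotypes.

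The sum over short RNAs had its lowest mean in hIAPP with and without Scarna10. It was 353 ± 43.7 CPM (SD, n = 6) in WT, 287 ± 49.5 in hIAPP and 339 ± 38.2 in rIAPP, and without Scarna10 it was 153 ± 28.6, 119 ± 15.4 and 144 ± 33.1. The members of 1 library moved together: WT 5 was the highest WT library for 8 of the 10 short RNAs of at least 1 CPM, and WT 3 the lowest for 7. hIAPP 2 was the highest hIAPP library for 7, and rIAPP 2 the highest rIAPP library for 6. The short RNAs are therefore not independent of each other within a genotype.

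The second comparison set rIAPP islets, which overexpress the non-amyloid rodent peptide, against the same WT libraries. Of the 16 hosts 3 were higher, Gas5, Snhg1 and Snhg4, and none lower, while 26.8% of all genes were called, 14.1% higher and 12.6% lower. The hosts' share is near that of all genes, and 8 hosts had a log2 change above 0 and 8 below. Of the 25 short RNAs 0 passed with edgeR and 0 with DESeq2, and 1 had an unadjusted p under 0.05, Snord17, at -0.55 (95% interval -0.99 to -0.11, adjusted p = 0.060). For all genes the share at that unadjusted threshold is not given here and is at least the 26.8% called. Snord17 was called as lower without WT 3 or without rIAPP 2. The median log2 change was -0.15 over the short RNAs, 18 of which were below 0, and 0.02 over the hosts.

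Gas5, the host first found as a transcript that accumulates in growth-arrested cells, was the most abundant host per kilobase. It had 52.5, 56.9 and 59.1 CPM (lowest, median, highest) in WT, 48.2, 50.3 and 56.6 in hIAPP and 62.5, 65.0 and 68.8 in rIAPP. The rIAPP libraries lay above all others, and hIAPP overlapped WT. It rose by 0.22 ± 0.05 on the log2 scale in rIAPP against WT (adjusted p = 0.0022). The 3 snoRNA members that Gas5 carries (Snord47, Snord78 and Snord80, 66 to 81 nt) were listed at 0 in all libraries, so its guides could not be set beside its exons.

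Snhg4, the host of Snora74a, and Snhg1, the host of Snord22, rose in rIAPP with groups that overlapped WT. Snhg4 had 6.55, 7.10 and 9.29 CPM in WT, 4.78, 6.26 and 7.69 in hIAPP and 8.48, 10.3 and 11.6 in rIAPP, a rise of 0.44 ± 0.11 in rIAPP against WT (adjusted p = 0.0038). Snhg1 had 11.6, 12.4 and 13.3 CPM in WT, 12.0, 12.5 and 15.6 in hIAPP and 12.4, 14.2 and 15.6 in rIAPP, a rise of 0.19 ± 0.07 (adjusted p = 0.043). The call of Snhg1 was lost without any 1 of 9 libraries (WT 1, 2, 3, 4 or 6, or rIAPP 2, 3, 4 or 6) and without the filter on low counts. With acinar markers as a covariate no host was called, with Gas5 at 0.21 (adjusted p = 0.13), Snhg4 at 0.49 (0.076) and Snhg1 at 0.20 (0.33). In that fit the genes called fell from 5417 to 2100 in all. The acinar shares of WT and rIAPP did not overlap, so it cannot separate acinar content from genotype. All 24 acinar and all 10 endothelial markers were higher in rIAPP than in WT. So were 8 of 10 stellate and mesenchymal markers, while 7 of 13 macrophage markers were lower. The parts of the endothelial, stellate and mesenchymal, and macrophage markers were not tested.

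A few more hosts lay near the threshold in this comparison. Snhg14, the imprinted transcript over the Snord116 cluster, had 5.43, 5.73 and 7.27 CPM in WT and 6.24, 7.19 and 7.40 in rIAPP, a change of 0.24 (adjusted p = 0.063). It was called without WT 5 and in 6 of the 11 alternatives, but not with the acinar covariate (adjusted p = 0.38, edgeR). Snhg8, host of Snora24, stood at 0.20 (adjusted p = 0.082), and Snhg12, which holds 4 of the snoRNAs, at 0.13 (adjusted p = 0.099).

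**Figure D3:**
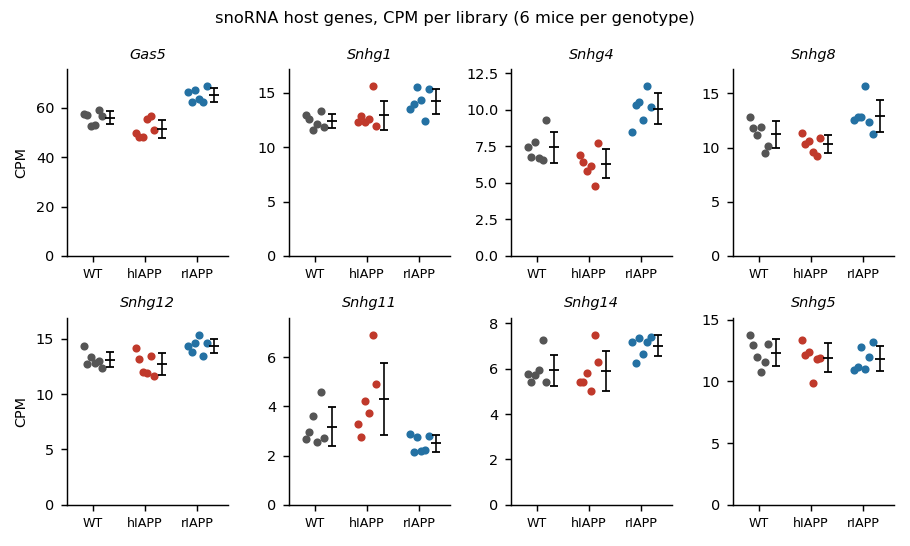
CPM (y axes) of 8 host genes in each library, by genotype, with points for the 6 libraries and bars for the mean and SD. The rIAPP points of Gas5 lie between 62.5 and 68.8, above all WT and hIAPP points.

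The third comparison set the transgenic groups, which overexpress the human or the rodent peptide, against each other. It uses the same libraries as the first and second, so its values are not independent of theirs. As these groups carry different transgenes and differ in marker content as given above, an effect of the peptide alone cannot be told apart. In hIAPP, 3 of 25 short RNAs were lower (Snord17, Snora74a and Scarna3a) and none higher, and 4 of 16 hosts were lower (Gas5, Snhg4, Snhg8 and Snhg12) while Snhg11 was higher. Among all genes 27.6% were called, 13.5% higher and 14.1% lower, so the share of short RNAs called was below that of all genes. Of the 16 hosts, 7 had a log2 change above 0. The log2 change was below 0 for 24 of the 25 short RNAs, with a median of -0.53, and 9 had an unadjusted p under 0.05. That count has no matching share of all genes here, which is at least the 27.6% called.

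Snord17 was 2.02-fold lower in hIAPP than in rIAPP, a fall of 1.02 ± 0.22 on the log2 scale with no overlap (adjusted p = 0.0013). Scarna3a fell by 1.47 ± 0.45 (adjusted p = 0.018). Snora74a, the U19 box H/ACA snoRNA, had 2.53, 4.84 and 9.19 CPM in WT, 2.57, 3.499 and 4.77 in hIAPP and 4.31, 6.32 and 10.02 in rIAPP, and fell by 0.85 ± 0.26 (adjusted p = 0.017). Its groups overlapped, and its call was lost without rIAPP 2 and without hIAPP 5 and hIAPP 6 together. The number of short RNAs called was 2 without rIAPP 2, 5 without rIAPP 5 and 6 without rIAPP 6. Genes called in all went from 5586 to 4891, 4956 and 5547 in these fits.

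Among hosts, Gas5 fell by 0.34 ± 0.05 (adjusted p = 2.9e-05) and Snhg4 by 0.68 ± 0.11 (adjusted p = 6.8e-05), neither with overlap between the 2 transgenic groups. Snhg8 had 9.51, 11.5 and 12.9 CPM in WT, 9.19, 10.4 and 11.4 in hIAPP and 11.3, 12.7 and 15.7 in rIAPP, a fall of 0.32 ± 0.08 (adjusted p = 0.0057). Snhg12 fell by 0.17 ± 0.06 (adjusted p = 0.030), from a median of 14.5 CPM in rIAPP to 12.6 in hIAPP, and its call was lost in 5 fits with 1 library left out (hIAPP 3, 4 or 6, or rIAPP 3 or 4) without hIAPP 5 and 6 together, without the filter on low counts and in a fit of these 2 genotypes alone. Snhg11 went the other way, with 2.54, 2.82 and 4.59 CPM in WT, 2.76, 3.98 and 6.89 in hIAPP and 2.14, 2.49 and 2.88 in rIAPP. It was 1.72-fold higher in hIAPP than in rIAPP (log2 0.78 ± 0.19, adjusted p = 0.0039), although the highest rIAPP library passed the lowest hIAPP library. Without hIAPP 5, 8 hosts were called, while the genes called in all went from 5586 to 5298. In this comparison 12 of 13 macrophage markers were higher and all 10 endothelial markers lower in hIAPP, and their part in the result was not tested.

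The remaining hosts did not pass the test in any comparison. Snhg5, host of Snord50, lay between 9.87 and 13.8 CPM in all 18 libraries, with log2 changes of -0.05, -0.06 and 0.01 in the 3 comparisons. Snhg10, host of Scarna13, had medians of 1.37 CPM in WT, 1.04 in hIAPP and 1.16 in rIAPP, and a change of -0.45 in hIAPP against WT (adjusted p = 0.097). Snhg3, host of Snora73, had medians of 4.49, 4.50 and 4.01 CPM. The summed level of all 16 hosts was 148 ± 5.50 CPM (SD, n = 6) in WT, 143 ± 6.34 in hIAPP and 163 ± 4.83 in rIAPP.

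**Figure D4:**
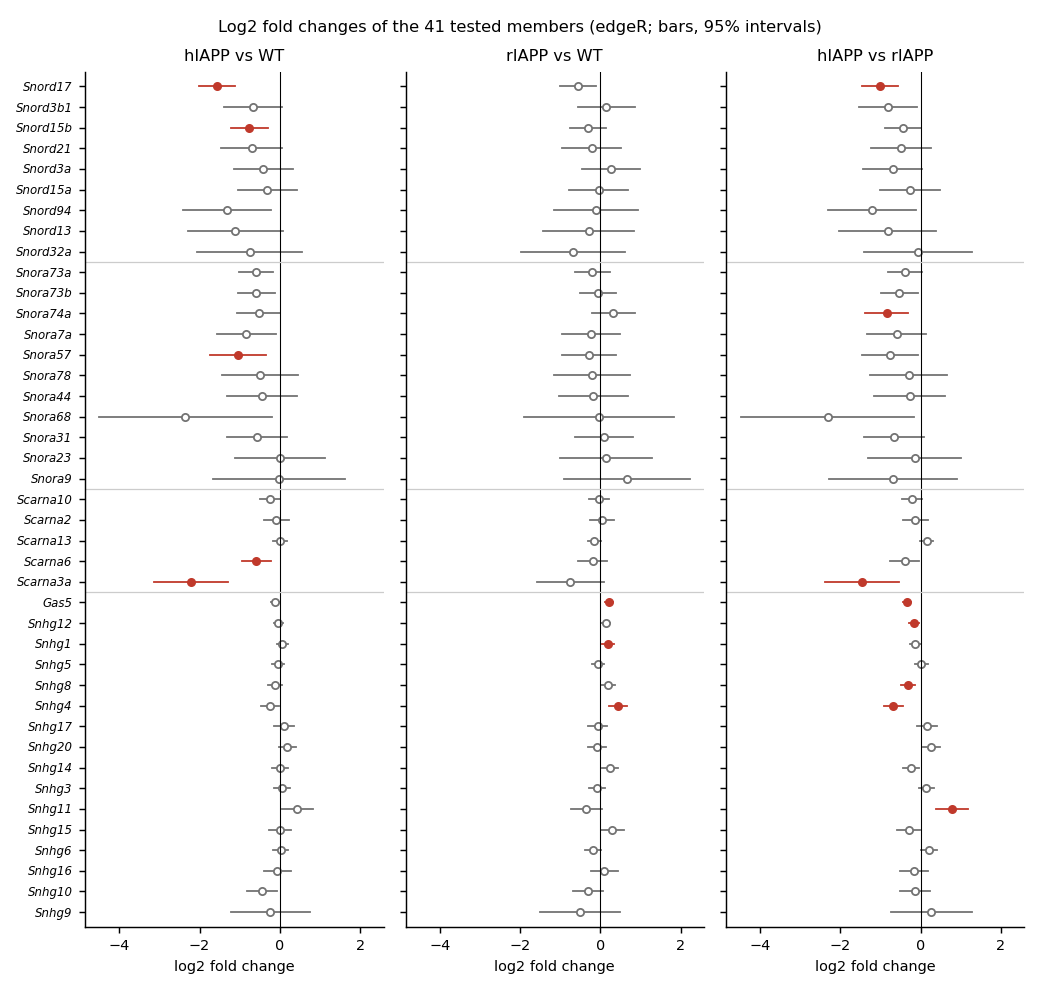
Log2 fold change (x axes, shared scale) of the 41 tested members in the 3 comparisons, with 95% intervals. Filled red points passed the test: 5 short RNAs in hIAPP against WT, 3 hosts in rIAPP against WT, and 3 short RNAs and 5 hosts in hIAPP against rIAPP.

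The hosts were searched for a pyrimidine run at the start of transcription in RefSeq annotation (GRCm38.p6). A run was counted where a C followed by at least 4 bases that are all C or T began within 5 bases of an annotated start, on the gene's strand. Snhg4 and Snhg6 were not searched. A run was present at some start of 6 of the 14 hosts matched (Gas5, Snhg3, Snhg8, Snhg9, Snhg10 and Snhg12), and at some start of 21.2% of all 27025 genes. The windows of 20 bases before and 30 from the start on are shown for the 3 hosts with a run that were lower in hIAPP than in rIAPP, and for Snhg11, which was higher and has none. Snhg4, the other host lower in hIAPP, is among those not searched. They lie at chr1:161035146-161035195 (plus strand, the second annotated start) for Gas5, chr3:123508307-123508356 (minus strand) for Snhg8, chr4:132308658-132308707 (plus strand) for Snhg12 and chr2:158375693-158375742 (plus strand) for Snhg11, with the run in capitals.
Gas5: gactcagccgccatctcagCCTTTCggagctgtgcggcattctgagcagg
Snhg8: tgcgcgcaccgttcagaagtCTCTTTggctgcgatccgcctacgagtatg
Snhg12: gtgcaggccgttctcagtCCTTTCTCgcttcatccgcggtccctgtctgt
Snhg11: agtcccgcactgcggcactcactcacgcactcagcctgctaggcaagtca

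Snhg3, Snhg9 and Snhg10 also have a run and were not called, at log2 changes of 0.14, 0.27 and -0.14 in hIAPP against rIAPP. A run at an annotated start is a description of the letters there and not a measurement of where transcription began in islets.

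Each tested short RNA was then set beside the gene that contains it. There were 20 such pairs of 18 short RNAs and 17 hosts, as Snora73a and Snora73b lie in both Snhg3 and Rcc1 and hosts include coding genes taken from the annotation. In hIAPP against WT the short RNA had the lower log2 change in 18 of 20 pairs, with medians of -0.59 for the short RNAs and -0.01 for the hosts, and no host was called. In rIAPP against WT this held for 14 of 20, with medians of -0.18 and 0.03. Of the 17 hosts 4 were called higher and 2 lower, against 14.1% and 12.6% of all genes. In hIAPP against rIAPP the short RNA was the lower in 18 of 20, with medians of -0.42 and -0.12. Here 2 of the 17 hosts were called higher and 5 lower, against 13.5% and 14.1% of all genes. Across pairs the log2 changes had a Pearson r of -0.34, 0.27 and 0.10 in the 3 comparisons, given without a test because pairs share hosts and libraries.

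Snord17 and its host Snx5, a sorting nexin of endosomes, were called in opposite directions in hIAPP against rIAPP. Snx5 had 69.2, 78.2 and 88.7 CPM (lowest, median, highest) in WT, 79.7, 89.3 and 101 in hIAPP and 62.7, 66.8 and 74.0 in rIAPP. It was higher in hIAPP than in rIAPP by 0.41 on the log2 scale (adjusted p = 0.00017) where Snord17 was lower by a change of -1.02, and lower in rIAPP than in WT by a change of -0.24 (adjusted p = 0.015), where Snord17 stood at -0.55. Against WT it stood at 0.17 in hIAPP (adjusted p = 0.11).

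For the other called guides the hosts stayed near 0 in hIAPP against WT. Scarna3a lies in Cop1, a ubiquitin ligase gene, which stood at -0.02 beside -2.21 for Scarna3a. Rps3 stood at 0.04 beside -0.76 for Snord15b, and Atg16l1, an autophagy gene, at -0.10 beside -0.59 for Scarna6. Conversely, Scarna13 did not move while its host Snhg10 stood at -0.45, without passing the test. Snora74a, which lies within the RefSeq span of Snhg4 and is not among the 20 pairs, fell with Snhg4 in hIAPP against rIAPP, by 0.85 and 0.68. Reads from an intronic guide can also be assigned to its host, and the strand setting of the counting is not given in the sources used here, so levels within a pair are not fully separate.

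**Figure D5:**
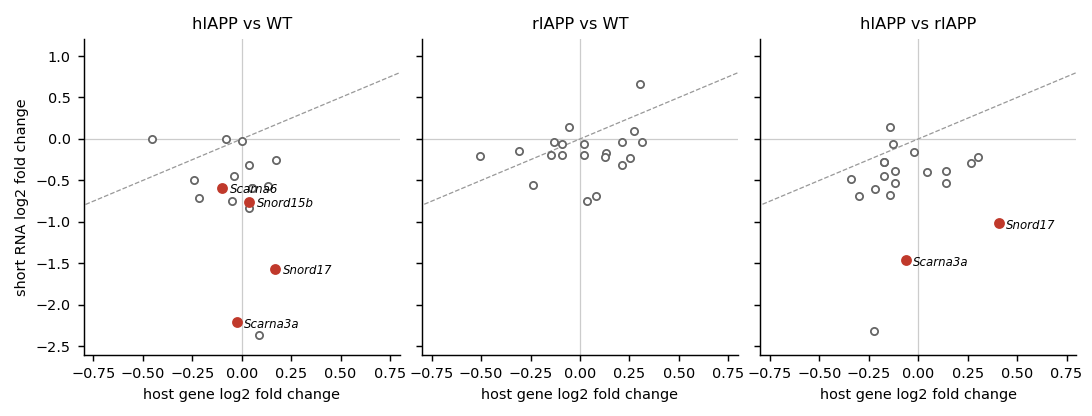
Log2 fold change of the short RNA (y axes) against that of its host (x axes) for 20 pairs in the 3 comparisons, with the dashed line of equality. Red points are short RNAs that passed the test, and 18 of 20 points lie below the line in hIAPP against WT.

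Genes for proteins that bind and mature guides were read against the shares of all genes given above, which in hIAPP against WT were 8.31% higher and 7.53% lower. In rIAPP against WT these shares were 14.1% and 12.6%, and in hIAPP against rIAPP 13.5% and 14.1%. Of 22 genes for snoRNP core and assembly proteins, 8 fell, 14 did not pass and none rose in hIAPP against WT, at a median of -0.16. Nop58, a core box C/D protein, had 32.4, 47.2 and 53.9 CPM in WT, 31.7, 33.3 and 36.9 in hIAPP and 40.95, 47.6 and 50.3 in rIAPP. It fell by 0.45 (adjusted p = 0.0018) against WT and by 0.48 (0.00038) against rIAPP. Nop56, its partner, fell by 0.28 (adjusted p = 0.00025) and Fbl, the methyltransferase fibrillarin, by 0.27 (0.0067) against WT, as did Nolc1, an assembly chaperone, by 0.31 (0.0069) and Coil, the Cajal body scaffold coilin, by 0.28 (0.021). In rIAPP against WT 1 of 22 rose, Pih1d1, an assembly cofactor, and none fell, and in hIAPP against rIAPP 7 fell and none rose. With library totals alone as the scaling the calls of Nop56, Fbl, Nolc1 and Coil in hIAPP against WT were lost, and that of Nop58 was kept. The call of Coil was also lost with the acinar covariate and without WT 3, WT 6, hIAPP 5 or hIAPP 6.

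Of 18 genes of the RNA exosome and snoRNA trimming, which cut and trim these RNAs, 8 fell, 10 did not pass and none rose in hIAPP against WT (median -0.16), 3 fell in rIAPP against WT, and 6 fell and 2 rose in hIAPP against rIAPP. Dis3, an exosome nuclease, had 15.9, 17.0 and 19.6 CPM in WT, 11.9, 13.0 and 14.6 in hIAPP and 16.6, 16.9 and 17.8 in rIAPP, a fall of 0.40 (adjusted p = 8.1e-05) against WT with no overlap. Dbr1, the enzyme that opens intron lariats, fell by 0.29 (adjusted p = 0.0082) against WT and by 0.31 (0.0022) against rIAPP. Xrn2, a nuclear 5′ exonuclease, fell by 0.36 (adjusted p = 0.0041) and Mtrex, the exosome helicase, by 0.28 (0.0068) against WT. The calls of Dbr1, Xrn2 and Mtrex against WT were lost with library totals alone, those of Dbr1 and Mtrex also with the acinar covariate, and that of Dbr1 without hIAPP 5 and 6 together, while Dis3 was called in each of these.

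Of 32 genes of the U3 processome and early ribosomal RNA processing, 11 fell and none rose in hIAPP against WT, at a median of -0.15. Utp4, a subunit needed early in the cutting of the precursor, fell by 0.45 (adjusted p = 0.00016), Nol10 by 0.43 (0.00054) and Utp18 by 0.38 (0.0019). In rIAPP against WT 4 fell, among them Utp4 by 0.28 (adjusted p = 0.0040) and Wdr12 by 0.34 (0.00035), and none rose. These are 12.5% of the 32, near the 12.6% of all genes called lower. In hIAPP against rIAPP 8 fell and 1 rose, Wdr12 at 0.22 (adjusted p = 0.012). The share called there was 28.1%, near the 27.6% of all genes. The acinar covariate ended the call of Utp18 in hIAPP against WT and those of Utp4 and Wdr12 in rIAPP against WT. Library totals alone also ended that of Utp4 in rIAPP against WT.

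Among 15 tested genes of RNA polymerase I transcription, 1 rose and 2 fell in hIAPP against WT, 20% called against 15.8% of all genes. The gene that rose was Myc, a growth regulator placed in that list, with 2.03, 2.93 and 3.88 CPM in WT, 2.91, 4.12 and 6.46 in hIAPP and 7.63, 8.84 and 9.90 in rIAPP. All rIAPP libraries were above all others, at 1.59 against WT (adjusted p = 3.9e-07), and hIAPP stood at 0.57 (adjusted p = 0.023). The polymerase subunit Polr1e fell by 0.33 (adjusted p = 0.015) in hIAPP against WT and by 0.51 (0.00018) against rIAPP. The calls of Myc and Polr1e in hIAPP against WT were lost with the acinar covariate, and that of Myc also without WT 1, WT 6, hIAPP 5 or hIAPP 6. That of Myc was further lost with limma-voom, with only the 2 genotypes and without hIAPP 5 and 6 together. Polr1e lost its call with library totals alone as well.

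Nonsense-mediated decay, the pathway that removes several spliced host transcripts, was mixed. Of 18 genes, 5 fell and 1 rose in hIAPP against WT, 3 fell and 1 rose in rIAPP against WT, and 4 fell and 1 rose in hIAPP against rIAPP. The shares called were 33.3, 22.2 and 27.8% in that order, against 15.8, 26.8 and 27.6% of all genes. Smg1, the kinase that phosphorylates Upf1, was the one that rose in hIAPP against WT, at 0.51 (adjusted p = 0.012). Upf3b, a factor at exon junctions, fell by 0.42 (adjusted p = 0.016) in hIAPP and by 0.44 (0.0063) in rIAPP against WT. The decapping enzyme gene Dcp2 rose by 0.18 (adjusted p = 0.0037) in rIAPP against WT and was lower in hIAPP than in rIAPP by a change of -0.31 (1.9e-05). The calls of Smg1 and Upf3b against WT were lost with the acinar covariate, and in hIAPP also without hIAPP 5 and 6 together. Upf3b in hIAPP against WT lost its call with library totals alone as well.

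Other short structured RNAs were set beside the guides. Of 13 tested, 2 fell and none rose in hIAPP against WT, Rmrp by 0.38 (adjusted p = 0.042) and Rnu11 by 0.76 (0.028). That is 15.4% called, near the 15.8% of all genes. The median of the 13 was -0.59, which matched that of the snoRNAs and scaRNAs to 2 decimals. In rIAPP against WT 1 fell, Rn7sk by 0.28 (adjusted p = 0.035), at a median of -0.26. In hIAPP against rIAPP 1 fell, Rnu1a1 by 0.99 (adjusted p = 0.010), at a median of -0.03, against -0.53 for the snoRNAs and scaRNAs. In each of these 2 comparisons 7.69% were called, below the 26.8% and 27.6% of all genes. The acinar covariate ended the calls of Rmrp, Rnu11 and Rn7sk, and each was also lost in at least 5 of the fits that left out 1 library. Whether recovery of short RNA differed between the genotypes was not tested beyond these values. Length was one more point of reference: in hIAPP against WT the 7 tested members of at least 200 nt had a median of -0.59 and the 15 shorter ones -0.71, and in hIAPP against rIAPP -0.39 and -0.60.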

How the data were processed

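Total RNA from islets of 18 mice, 6 per genotype and 1 library each, was sequenced after removal of ribosomal RNA. The deposited table holds estimated counts per gene symbol, made by the authors with STAR and HTSeq on GRCm38 (mm10), per the submitters' processing notes. The origin of its non-whole values, the gene annotation and any strand option were not found in labels or headers. Of the values above 0, 39.2% were not whole, and all were rounded to whole numbers before testing. Genes were filtered with filterByExpr by genotype (20244 kept), scaled by TMM and fitted with edgeR 4.0.16 (R 4.3.3) over all 18 libraries with 1 mean per genotype, using the two-sided quasi-likelihood test with Benjamini-Hochberg adjustment over all genes tested and a threshold of 0.05. CPM are scaled by TMM library sizes, and 3 counts, the floor used for a count of 0, equal 0.0187 to 0.0254 CPM, which covers counting error only. The 45 pairs of libraries within a genotype differed by more than counting noise (chi-square divided by its degrees of freedom was 28.1 to 271). The labels describe separate mice.

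Genes named were all hosts, the 3 members of each short class with the highest mean CPM and up to 4 called ones per comparison, and up to 4 called genes of each surrounding list per comparison. Hosts of short RNAs outside these were taken from the annotation. Members and lists were chosen with earlier results of these data known. Lengths and sequences came from GENCODE M21 transcripts (146 of 155 members matched) and start windows from RefSeq GRCm38.p6. Alternatives were other scaling, filters, DESeq2 1.42.0, limma-voom (limma 3.58.1), 2 genotypes only, an acinar marker covariate, thinned counts, removal of the 10 most abundant genes, and leaving libraries out. The fitting was tested on simulated data.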

Additional observations from a re-analysis of the deposited data

Results flagged for a closer look

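In 20 of the 234 genotype groups of 6 libraries checked, the lowest or highest library lay far from its nearest neighbour by Dixon's test at its 95% critical value, and chance gives about 1 in 20 groups. Among members, Scarna2 was low in rIAPP 6 (26.3 CPM, next 50.6). Single libraries were high for Snhg1 in hIAPP 5 (15.6 CPM, next 12.9), Snhg14 in WT 5 (7.27, next 5.96), Snhg17 in rIAPP 1 (9.20, next 7.27), Snhg20 in WT 5 (8.77, next 6.34) and Snhg8 in rIAPP 4 (15.7, next 12.9).

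Among the surrounding gene lists, single libraries were low for Nop58 in rIAPP 1 (40.95 CPM, next 46.9), Fbl in WT 5 (13.4, next 15.6), Coil in rIAPP 1 (10.9, next 12.7), Utp18 in hIAPP 6 (13.3, next 15.3) and Wdr12 in WT 6 (18.5, next 20.5). Single libraries were high for Dcaf13 in rIAPP 6 (28.3 CPM, next 23.7), Smg1 in WT 5 (142, next 98.7), Dis3 in rIAPP 3 (17.8, next 17.0), Rn7sk in rIAPP 4 (24038, next 21438), Rian in WT 5 (478.6, next 355) and Meg3 in WT 5 (465, next 237). In hIAPP 6, the stress genes Trib3 (20.97 CPM, next 8.30), Ddit3 (65.01, next 41.2) and Aldh18a1 (108.6, next 89.4) were high. WT 5 supplied 6 of these 20 values, and it was also the highest WT library for 8 of the 10 short RNAs of at least 1 CPM.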

How the results depend on the processing

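No paired analysis was possible because the replicate numbers were given in accession order within each genotype and the labels tie no mouse of one genotype to a mouse of another. Sample titles carry a number for each mouse that runs across the genotypes, and the labels do not say whether it marks litters or days. Short RNAs called in hIAPP against WT (5) became 3 when genes had to average 1 CPM (10 short RNAs tested), 3 with limma-voom, 6 with DESeq2, 6 with only the 2 genotypes, 1 with the acinar covariate and 2 without hIAPP 5 and 6 together, and ranged from 2 to 7 when 1 library was left out. Genes called in all (3208) became 3190, 3940, 3869, 2796, 806 and 1675 in that order, and ranged from 2377 to 3919. Hosts in that comparison (0) became 1 with limma-voom and ranged from 0 to 2, with 2 without WT 5. In rIAPP against WT, hosts (3) became 6 with library totals alone, 5 with the mean of 1 CPM, 5 with only the 2 genotypes and 0 with the acinar covariate, and ranged from 2 to 4, while short RNAs (0) ranged from 0 to 1. Genes called in all (5417) there became 5958, 4842, 5477 and 2100 in that order, and ranged from 4711 to 5612. In hIAPP against rIAPP, short RNAs (3) became 5 and hosts (5) became 8 with limma-voom, and ranged from 2 to 6 and from 4 to 8. Genes called in all (5586) became 6762 with limma-voom and ranged from 4865 to 5718. The cause of these shifts was not tested. Acinar marker shares in WT (0.0873 to 0.363%) did not overlap those in rIAPP (0.434 to 1.74%). They overlapped those in hIAPP (0.228 to 1.65%) only in part. The covariate therefore cannot cleanly separate acinar content from genotype against WT. Of the 16 calls on named members, 6 held under all 11 alternatives: Snord17 in hIAPP against WT and against rIAPP, and Gas5, Snhg4, Snhg8 and Snhg11 in hIAPP against rIAPP. Scarna3a in hIAPP against rIAPP held in the 9 that tested it. No named member changed direction while called. Library totals alone moved the median of all genes to 0.106 in hIAPP and 0.103 in rIAPP against WT on the log2 scale, and then 21 of 25 short RNAs were below 0 in hIAPP against WT. Counts of 0 to 36 for Scarna3a limit its precision.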

Other observations

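Genes of the integrated stress response, which slows translation when proteins misfold or amino acids are short, rose in both transgenic groups. Of 20 tested, 17 rose in hIAPP and 17 in rIAPP against the same WT libraries, and none fell. This is 85% in each, against 8.31% of all genes higher in hIAPP and 14.1% in rIAPP. Trib3, a pseudokinase induced by this pathway, stood at 3.02 on the log2 scale in hIAPP and 1.91 in rIAPP, Nupr1 at 3.31 and 2.57, and Ddit3, the transcription factor CHOP, at 1.36 and 0.49. In hIAPP against rIAPP 3 rose and 1 fell, 20% called, below the 27.6% of all genes. As these groups differ in marker content as given above, beta cells and other cells cannot be told apart as the source. The calls of Trib3 and Ddit3 in rIAPP against WT were lost with the acinar covariate, and that of Ddit3 also without WT 3, WT 4, WT 6, rIAPP 1, rIAPP 4 or rIAPP 5.

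Hosts of the imprinted Dlk1-Dio3 cluster, which carry snoRNAs and microRNAs, differed between the transgenic groups. Rian, the host of a box C/D snoRNA cluster, had 318, 344 and 478.6 CPM (lowest, median, highest) in WT, 348, 358 and 434 in hIAPP and 220.0, 255 and 276 in rIAPP. The rIAPP libraries lay below all others, a fall of 0.52 against WT (adjusted p = 0.0002, edgeR). Mirg, a microRNA host, had 28.6, 34.4 and 49.8 CPM in WT, 33.4, 37.9 and 41.6 in hIAPP and 17.6, 21.02 and 27.2 in rIAPP, and fell by 0.74 in rIAPP against WT (adjusted p = 5.1e-05). Meg3 was higher in hIAPP than in rIAPP by 0.89 (adjusted p = 0.0031) and stood at -0.56 in rIAPP against WT (adjusted p = 0.053). The hosts of the other imprinted snoRNA cluster, Snrpn, Snurf and Snhg14, were not called in any comparison of the main fit. Snhg14 was called as higher in rIAPP than in WT in 6 of the 11 alternatives. In hIAPP against rIAPP it was called as lower without hIAPP 5 and 6 together (-0.37, adjusted p = 0.0044, edgeR).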
